A study of Mus musculus with 13 samples.

Results

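Emx1, Emx2, Lhx2 and Lhx9 are homeodomain transcription factors of the dorsal telencephalon, the part of the forebrain that forms the cerebral cortex and the hippocampus. They were followed as 4 named genes among 55450 annotated mouse genes in ATAC-seq peak lists of cultured oligodendrocyte precursor cells (OPCs). Emx1 and Emx2 are the mouse counterparts of the fly gene empty spiracles. Emx2 is known for its part in patterning the cortex along its axes and in growth of the hippocampus, and Emx1 marks the progenitors of cortical excitatory neurons. Lhx2 and Lhx9 are LIM-homeodomain proteins, which carry a pair of LIM domains for protein contacts beside the DNA-binding homeodomain. Lhx2 acts as a selector of cortical identity in early progenitors, and Lhx9 is its closest relative. OPCs are the dividing precursors of myelinating oligodendrocytes, and those of the cortex arise in part from progenitors of the Emx1 lineage.

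The OPCs came from mouse pups at P5-P7 on an FVB background, were panned on an antibody to PDGFRa and were kept in proliferation medium without differentiation. Tissue was brainstem or dorsal telencephalon (labelled cortex, and including corpus callosum and hippocampus). K27M pups carried the conditional H3-3a-LSL-K27M knock-in, which puts the mutant histone H3.3 K27M under the endogenous H3-3a locus after Cre recombination, with Cre from a GFAP promoter transgene (labelled AMGFAP-Cre, hGFAP-Cre in the study's methods) that acts in neural stem and progenitor cells. Control pups were littermates, and the cells of several pups were pooled by region and genotype. Brainstem gave 3 control and 3 K27M libraries, and telencephalon gave 3 control and 4 K27M libraries. Culture numbers 41, 51, 59 and 61 recurred across the groups.

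Open chromatin was measured as peaks called by the authors in each library separately. The strength of a peak is its deposited fold enrichment over local background, and its within-list percentile is the rank of that fold among all peaks of the same library. Lists held 16879 to 52466 peaks, and the smallest was that of control telencephalon culture 59. Depth is unknown, so a gene without a peak had none called at the depth of that library. All 5 OPC markers examined (Pdgfra, Cspg4, Olig1, Olig2 and Sox10) had promoter peaks in libraries of both regions, with 4 or 5 of them in every library. Cspg4 was called in only 1 telencephalon and 2 brainstem libraries. Mean percentiles in telencephalon and brainstem were 42.5 and 37.8 at Olig1 and 40.3 and 42.4 at Olig2. They were 17.1 and 19.9 at Pdgfra, 5.85 and 5.54 at Sox10, and 0.0104 and 0.0297 at Cspg4. Of the 5 microglia markers 0 to 3 had a promoter peak per library, with none at Cx3cr1 or Csf1r, and of the 5 endothelium markers 0 to 2 had one, with none at Tek or Cdh5. The microglia marker P2ry12 was called in 6 of 7 telencephalon and 6 of 6 brainstem libraries, at mean percentiles of 61.0 ± 32.9 (SD, n = 7) and 69.4 ± 18.5 (SD, n = 6). The endothelium marker Flt1 was called in 6 and 5 libraries, at 46.1 ± 23.3 (SD, n = 7) and 46.6 ± 32.2 (SD, n = 6). The 5 astrocyte markers had 2 to 5 promoter peaks per library, and the 6 neuron markers 4 to 6 in telencephalon and 4 to 5 in brainstem. Mean percentiles of astrocyte markers ran from 4.15 and 4.91 (telencephalon and brainstem) at Aldh1l1 to 63.4 and 63.9 at Gfap. Those of neuron markers ran from 0.884 and 0 at Neurod6 to 94.8 and 89.4 at Syt1. Gfap and Syt1 thus ranked above every OPC marker. An open promoter is not a measure of expression, and the part of other cell types in the values below was not tested.

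Peaks of all libraries that overlapped were joined into 99746 merged peaks, and 59 of these lay within 100 kb of the 4 genes. The sequences of 7 of them are shown because the comparisons below turn on them. Each is a 200-base stretch of the forward strand of mm10, chosen nearest to the part of the merged peak that most libraries share and free of annotated exons. Capitals mark matches to 3 motifs sought on both strands, TAATTA (a homeodomain core site), CAGCTG (an E-box) and ACAAAG (a Sox-type site, CTTTGT on the other strand). The 1st shown is the distal peak upstream of Emx2 that all libraries share, and the 2nd lies just upstream of Emx2.
Emx2 distal, chr19:59394027-59394226: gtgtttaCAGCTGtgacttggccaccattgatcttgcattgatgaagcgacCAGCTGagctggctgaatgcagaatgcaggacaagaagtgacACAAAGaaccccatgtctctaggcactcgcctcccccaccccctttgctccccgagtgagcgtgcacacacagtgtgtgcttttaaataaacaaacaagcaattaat
Emx2 promoter, chr19:59457901-59458100: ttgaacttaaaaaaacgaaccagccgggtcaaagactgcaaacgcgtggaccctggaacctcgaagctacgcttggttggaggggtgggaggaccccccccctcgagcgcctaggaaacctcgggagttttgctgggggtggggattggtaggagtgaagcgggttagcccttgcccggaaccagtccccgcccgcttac
Lhx2 internal promoter, chr2:38350559-38350758: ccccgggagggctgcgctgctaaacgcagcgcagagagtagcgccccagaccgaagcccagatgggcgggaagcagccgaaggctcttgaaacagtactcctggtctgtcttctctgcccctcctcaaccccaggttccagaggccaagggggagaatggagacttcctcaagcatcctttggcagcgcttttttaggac
Lhx2 downstream, chr2:38395235-38395434: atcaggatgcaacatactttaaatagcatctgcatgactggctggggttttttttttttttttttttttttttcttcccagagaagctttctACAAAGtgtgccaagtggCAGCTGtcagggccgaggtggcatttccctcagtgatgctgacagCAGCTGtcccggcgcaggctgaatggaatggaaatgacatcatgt
Emx1 promoter, chr6:85187238-85187437: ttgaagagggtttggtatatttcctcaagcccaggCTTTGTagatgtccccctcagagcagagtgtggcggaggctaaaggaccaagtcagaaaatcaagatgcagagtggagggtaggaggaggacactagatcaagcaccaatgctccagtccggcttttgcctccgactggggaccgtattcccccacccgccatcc
Lhx9 first promoter, chr1:138848578-138848777: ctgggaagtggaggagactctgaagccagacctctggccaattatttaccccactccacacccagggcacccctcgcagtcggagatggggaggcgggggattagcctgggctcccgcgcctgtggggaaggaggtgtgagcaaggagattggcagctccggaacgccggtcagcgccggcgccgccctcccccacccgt
Lhx9 upstream, chr1:138865304-138865503: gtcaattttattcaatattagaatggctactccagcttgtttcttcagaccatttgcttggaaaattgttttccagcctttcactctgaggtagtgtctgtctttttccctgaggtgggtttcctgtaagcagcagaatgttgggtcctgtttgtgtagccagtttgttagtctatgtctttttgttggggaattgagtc

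The Emx2 distal stretch held 2 CAGCTG matches and 1 ACAAAG match, and so did the Lhx2 downstream stretch. The Emx1 promoter stretch held 1 ACAAAG match. Over the 22 such stretches scored for the 4 genes, CAGCTG was in 2, ACAAAG in 6 and TAATTA in 0. Among 99644 merged peaks of the whole series, the central 200 bases held CAGCTG in 13.7%, ACAAAG in 18.7% and TAATTA in 5.14%. A match is a description of letters and not of a bound site. The 6 promoter stretches had 54.5 to 67% GC and 5 to 15 CpG, and the 16 distal ones 32 to 65.5% GC and 0 to 20 CpG.

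Of the 4 genes, Emx2 had the largest regional difference in how many libraries had a promoter peak. The gene (chromosome 19, 59458372 to 59465357, forward strand, mm10) has 3 annotated starts, its promoter is shared with the antisense transcript Emx2os, and a merged peak of 2638 bp overlapped the promoter windows of both. The peak was called in 7 of 7 telencephalon libraries and in 2 of 6 brainstem libraries. Its fold enrichment was 2.37, 2.56 and 2.66 in control telencephalon cultures 51, 59 and 61. In K27M telencephalon cultures 41, 51, 59 and 61 it was 2.70, 2.69, 2.82 and 2.39. The 2 brainstem peaks lay within the telencephalon range, with 2.58 in control culture 51 and 2.67 in K27M culture 41. The regions thus differed in how many libraries had the peak, while the folds of called peaks overlapped. The 4 brainstem lists without it held 27768 to 52466 peaks, whereas the telencephalon list of 16879 peaks had it. Called peaks here were wide, 1813 ± 544 bp (SD, n = 9).

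Taken as a within-list percentile, with 0 where no peak was called, the Emx2 promoter averaged 26.9 ± 11.2 (SD, n = 7) in telencephalon and 9.27 ± 16.7 (SD, n = 6) in brainstem. The difference was 16.8 percentage points (two-sided exact permutation p = 0.0429 over 700 arrangements of region within genotype, adjusted p = 1 over 14068 protein-coding genes). At this level 0.924% of all genes tested were higher in telencephalon, and no gene passed adjustment, the smallest adjusted p being 1. The smallest p that 700 arrangements allow is 0.00143. Adjustment over 14068 genes could thus be passed only if many genes reached that value together. The lack of adjusted calls in these permutation tests therefore does not show that the groups were alike. The brainstem calls of Emx2 alone were below the filter of 3 libraries, so it entered the test through telencephalon. Its permutation p-values in this paragraph are therefore given as a description. The difference was 15.2 points within controls (exact p = 0.1, the smallest that 3 against 3 libraries allow) and 18.4 points within K27M (exact p = 0.257). With labels exchanged only within culture pairs it was 15.6 points (exact p = 0.0625, where the smallest possible is 0.03125). When peaks were ranked by −log10 p in place of fold, the difference was 54.5 points (exact p = 0.00143, the smallest that 700 arrangements allow). No adjusted p was computed for that ranking. The −log10 p of the peak was 10.8 in K27M telencephalon culture 51 and 3.79 to 8.34 in the other libraries with it. Too few libraries thus kept the peak at p at most 1e-10 for a test. Ranked by fold, the call was lost without control brainstem culture 59 or 61 (exact p = 0.0714 each), K27M brainstem culture 59 or 61 (0.13 each) or control telencephalon culture 61 (0.0543). It was also lost without K27M telencephalon culture 41 or 51 (exact p = 0.095 each) or 59 (0.085).

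With every list reduced to its 16879 most significant peaks, the Emx2 promoter peak stayed in 6 of 7 telencephalon and 0 of 6 brainstem libraries. The telencephalon library without it was control culture 51. The difference in percentile was then 5.58 points (exact permutation p = 0.0343, adjusted p = 0.995 over 11219 genes). Fisher's exact test on these calls gave p = 0.00466 (adjusted p = 0.469 over 1307 genes with a promoter peak in 5 to 8 libraries). Among those genes 3.52% had a p of at most 0.05 and 0 passed adjustment. Emx2 entered both tests through telencephalon calls alone, so these p-values are given as a description. The deposited lists put the Emx2 promoter in 9 libraries, outside the range in which Fisher's exact test was run, and there 1.46% of 962 genes had a p of at most 0.05.

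**Figure D1:**
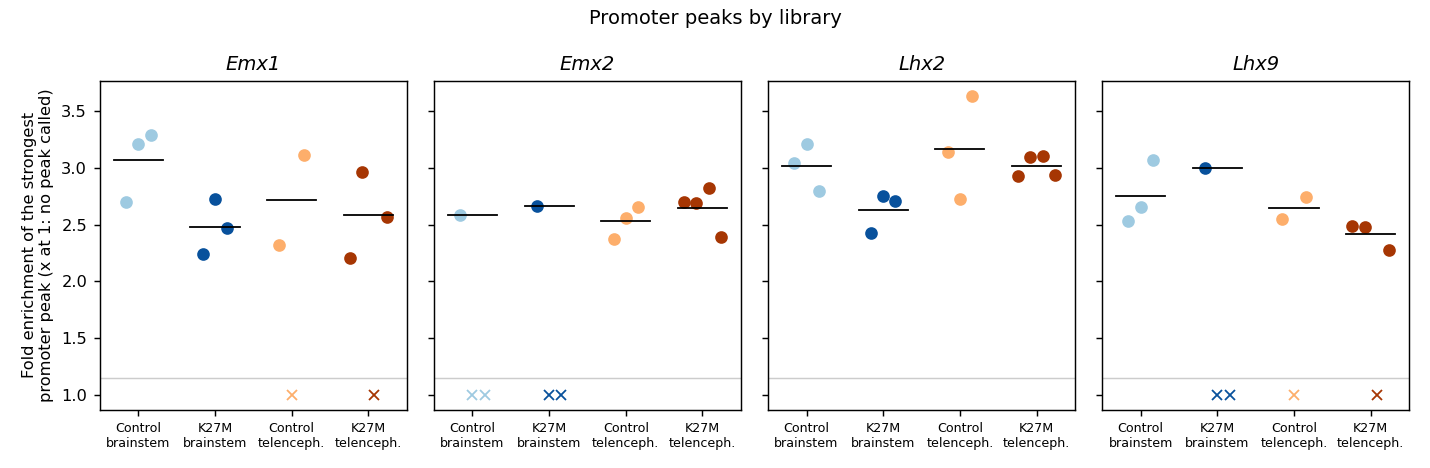
Fold enrichment over local background of the strongest promoter peak of each gene (y axis) in each of the 13 libraries, by group; circles are called peaks, crosses at 1 are libraries with no peak called, and the line is the mean of called peaks. Emx2 has a peak in all 7 telencephalon libraries and in 2 of 6 brainstem libraries, and Lhx2 has one in every library.

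Around Emx2, 15 merged peaks lay within 100 kb, 13 of them distal (outside every annotated promoter). The strongest of these, centred 64.0 kb upstream of the first start and shown above as Emx2 distal, was called in all 13 libraries. Its fold was 3.91, 3.01 and 4.24 in control brainstem cultures 51, 59 and 61, and 4.73, 4.10 and 3.42 in K27M brainstem cultures 41, 59 and 61. In telencephalon it was 2.99, 2.70 and 4.24 in control cultures 51, 59 and 61, and 3.43, 4.41, 3.22 and 3.79 in K27M cultures 41, 51, 59 and 61. The groups overlapped widely. After centring of each library on its median, the log2 difference of telencephalon over brainstem was −0.10 ± 0.07 (SE; limma, adjusted p = 0.874 over 13075 peaks shared by all libraries). In the same test 6.39% of shared peaks had an unadjusted p of at most 0.05 and 3 passed adjustment, none of them near the 4 genes.

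A peak 83.8 kb downstream of the Emx2 start was called in 6 of 6 brainstem and 6 of 7 telencephalon libraries, with a fold of 3.39 ± 0.54 (SD, n = 12). Other Emx2 distal peaks were called in fewer libraries. The peak 90.1 kb upstream was in 2 brainstem and 5 telencephalon libraries (Fisher's exact p = 0.286, where 2.36% of 11706 merged peaks tested had a p of at most 0.05) and that 39.9 kb upstream in 3 and 4 (exact p = 1). The nearest, 4.02 kb upstream, was in 3 brainstem and 1 telencephalon libraries. Fold in these 3 averaged 2.63, 2.75 and 2.72.

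Lhx2 (chromosome 2, 38339281 to 38369733, forward strand, 7 annotated starts) was the only one of the 4 genes with a promoter peak in all 13 libraries. Its promoter windows overlapped 2 merged peaks. The first, 0.616 kb from the most upstream start, was called in 4 of 6 brainstem and 6 of 7 telencephalon libraries. The internal one, centred 11.98 kb downstream of that start and shared with the transcript Gm27197, was called in every library. Fold at the internal promoter was 3.05, 2.66 and 2.80 in control brainstem cultures 51, 59 and 61, and 2.43, 2.70 and 2.71 in K27M brainstem cultures 41, 59 and 61. In control telencephalon cultures 51, 59 and 61 it was 3.14, 2.72 and 3.63. K27M telencephalon cultures 41, 51, 59 and 61 had 2.93, 3.10, 2.99 and 2.67. Telencephalon averaged 3.03 ± 0.32 (SD, n = 7) and brainstem 2.72 ± 0.20 (SD, n = 6), with overlap between the regions.

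The log2 difference of the internal Lhx2 promoter between regions was 0.21 ± 0.08 (SE), with an unadjusted limma p of 0.0126 and an adjusted p of 0.686. Without centring of the libraries it was 0.14, with an unadjusted limma p of 0.163. The other 4 peaks near these genes that all libraries shared had limma p of 0.178 to 0.825 for region.

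The strongest promoter peak of Lhx2 had a percentile of 59.8 ± 13.3 (SD, n = 7) in telencephalon and 39.77 ± 15.95 (SD, n = 6) in brainstem. It was above 50 in 6 of 7 telencephalon libraries and 2 of 6 brainstem libraries. The difference was 20.2 points (two-sided exact permutation p = 0.0271, adjusted p = 1). Within K27M it was 29.4 points (exact p = 0.0286, the smallest that 4 against 3 libraries allow) and within controls 11.1 points (exact p = 0.5). With labels exchanged within culture pairs it was 20.1 points (exact p = 0.125), and with only peaks of p at most 1e-10 it was 6.32 points (exact p = 0.2). At that cutoff the promoter peak was kept only in control telencephalon cultures 51 and 61 and K27M telencephalon culture 51. Lhx2 thus entered that test through telencephalon alone, and the value is given as a description. The call was lost without control brainstem culture 51 (exact p = 0.0743) or 61 (0.111), and without control telencephalon culture 51 or 61 (0.109 each). In lists of equal length the Lhx2 promoter was still called in 7 of 7 libraries from telencephalon and 3 of 6 from brainstem, and the difference was 15.0 points (exact p = 0.04, adjusted p = 0.995). There 1.79% of 11219 genes were higher in telencephalon at this level. Lhx2 and Emx2 were thus both among the genes with an unadjusted regional difference, and neither passed adjustment. For Emx2 that p-value is a description only, because the gene entered the test through telencephalon.

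Of 13 merged distal peaks within 100 kb of Lhx2, 1 lay inside the gene, and 7 were in 1 library only, as were 43.1% of all merged peaks of the series. The peak 56.2 kb downstream, shown above, was called in 4 telencephalon libraries and 1 brainstem library (Fisher's exact p = 0.266, adjusted p = 1). Its folds were 2.47 and 3.21 in control telencephalon cultures 51 and 61, 2.34 and 2.36 in K27M telencephalon cultures 51 and 61, and 3.43 in control brainstem culture 61. Peaks 36.9 and 121.2 kb downstream were each in 3 brainstem and 3 telencephalon libraries, and a peak 87.98 kb upstream was in 1 and 2. The promoter of the neighbouring gene Dennd1a, 52.1 kb upstream, was open in every library, with a fold of 3.93 ± 0.53 (SD, n = 13).

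Emx1 (chromosome 6, 85187438 to 85204462, forward strand, 2 annotated starts) had a called promoter in every brainstem library (6 of 6) and in 5 of the 7 from telencephalon. Fold was 2.70, 3.21 and 3.29 in control brainstem cultures 51, 59 and 61, and 2.24, 2.73 and 2.47 in K27M brainstem cultures 41, 59 and 61. Control telencephalon cultures 51 and 61 had 2.32 and 3.11, and culture 59 had no peak. K27M telencephalon cultures 41, 51 and 61 had 2.21, 2.96 and 2.57, and culture 59 had none. The percentile differed by −10.0 points between telencephalon and brainstem (exact permutation p = 0.47). In lists of equal length the peak was left in 1 library of each region.

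The peak 27.5 kb upstream of Emx1 was called in 6 of 7 K27M and 1 of 6 control libraries (Fisher's exact p = 0.0291, adjusted p = 1). It was the 1 of 9 tested peaks near the 4 genes with an unadjusted p of at most 0.05 for genotype, where 1.26% of 11706 merged peaks had one. Its fold was 2.15 to 2.55 and it was in 0 lists of equal length. For region 0 of the 9 had such a p by Fisher's exact test, beside the 2.36% of all merged peaks. No merged peak passed adjustment in either comparison. A peak inside Emx1, 3.08 kb from the start, was in 2 brainstem and 3 telencephalon libraries, and a peak 51.5 kb downstream was in 2 of each.

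Lhx9 (chromosome 1, 138825186 to 138848577, reverse strand, 7 annotated starts) had promoter windows that overlapped 3 merged peaks, each called in 2 to 7 libraries. The peak at the most upstream start, shown above as Lhx9 first promoter, was called in 4 of 6 brainstem and 3 of 7 telencephalon libraries (Fisher's exact p = 0.592). The peak 6.34 kb downstream of that start was called in 2 and 5 (exact p = 0.286). Counting any start, a promoter peak was called in 4 of 6 brainstem and 5 of 7 telencephalon libraries. The strongest one had a fold of 2.53, 2.66 and 3.07 in control brainstem cultures 51, 59 and 61 and 3.00 in K27M brainstem culture 41, with none in cultures 59 and 61. It had 2.55 and 2.74 in control telencephalon cultures 51 and 61, and 2.49, 2.48 and 2.28 in K27M telencephalon cultures 41, 51 and 61, with none in culture 59 of either genotype. The percentile differed by −4.53 points between the regions (exact permutation p = 0.687). No Lhx9 promoter peak was left in any list of equal length. The gene's most frequent distal peak lay 16.4 kb upstream and was called in 5 of 6 brainstem and 7 of 7 telencephalon libraries, with a fold of 2.85 ± 0.30 (SD, n = 12). It was wide, 2014 ± 780 bp. Distal peaks 85.8 and 80.997 kb upstream were in 3 and 2 brainstem and in 1 and 2 telencephalon libraries. The promoter of the neighbouring gene 2310009B15Rik, 8.26 kb upstream, was open in all libraries with a fold of 4.77 ± 0.88 (SD, n = 13).

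**Figure D2:**
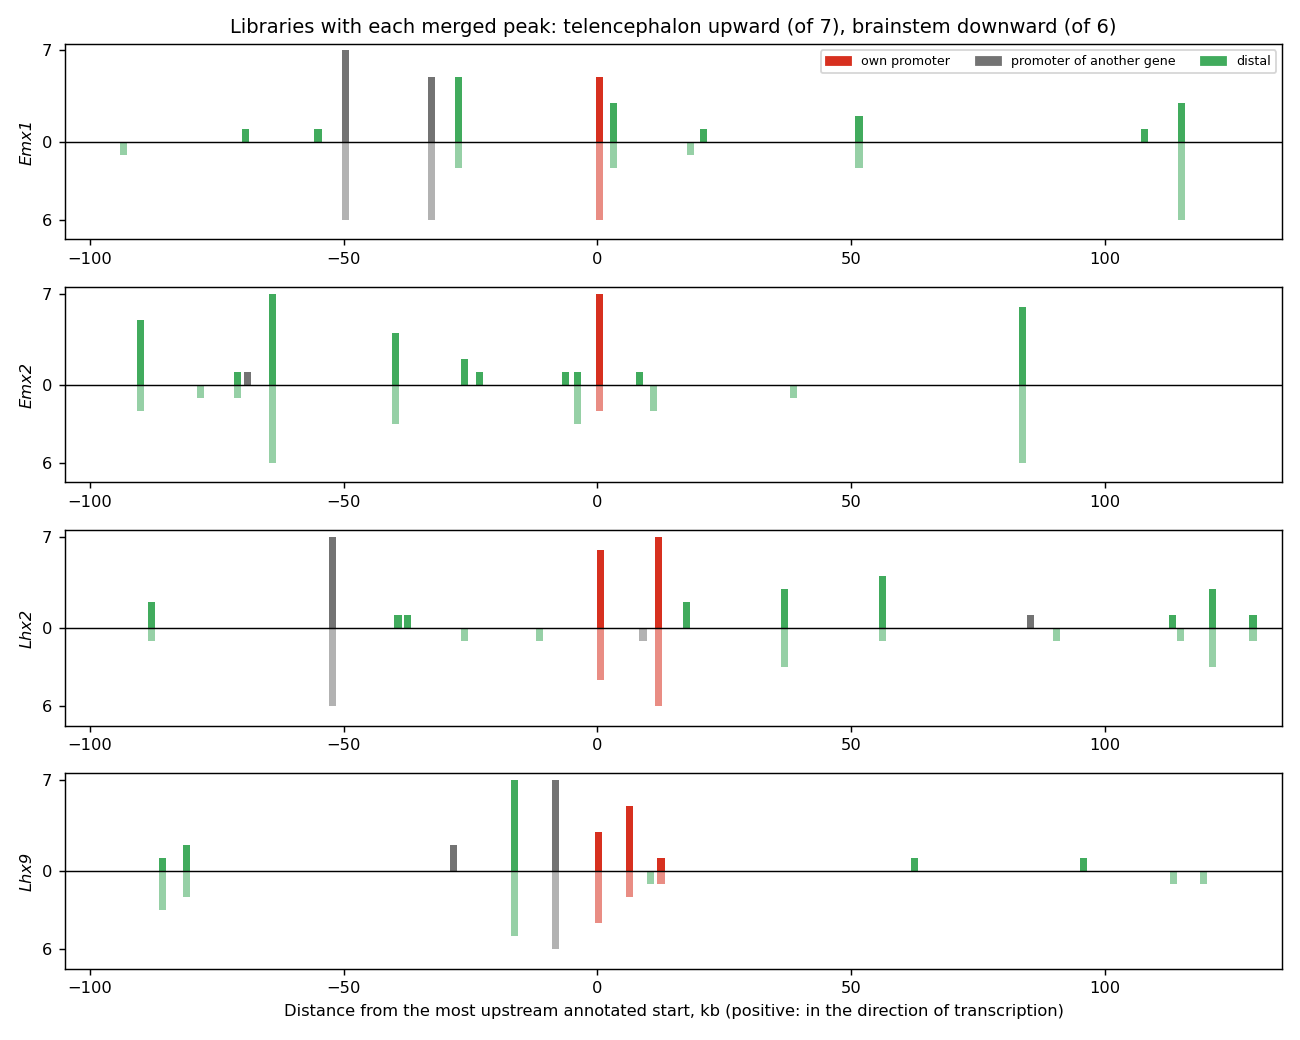
Number of libraries in which each merged peak within 100 kb of the 4 genes was called (y axis; telencephalon upward, brainstem downward) against its distance from the most upstream start in kb (x axis; positive in the direction of transcription). The Emx2 promoter bar reaches 7 upward and 2 downward, while the Emx2 peak 64.0 kb upstream reaches 7 and 6.

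No difference between genotypes in promoter percentile passed the exact permutation test at any of the 4 genes. The difference of K27M minus control was −17.4 points at Emx1 (exact p = 0.193), 10.7 at Emx2 (exact p = 0.211), −12.5 at Lhx2 (exact p = 0.137) and −8.69 at Lhx9 (exact p = 0.457). At Emx1 it was −34.5 points within brainstem (exact p = 0.1, the smallest possible there) and −0.384 within telencephalon (exact p = 0.943). At Lhx2 these were −21.7 (exact p = 0.2) and −3.37 (exact p = 0.886). At Emx2 they were 9.05 and 12.3 points, and at Lhx9 −6.78 and −10.6. In all genes tested 3.81% had a p of at most 0.05 for genotype. The Lhx2 difference was −19.8 points in lists of equal length (exact p = 0.0157, adjusted p = 1), with 9.91 ± 10.1 (SD, n = 7) in K27M and 29.0 ± 16.5 (SD, n = 6) in control libraries. In lists of equal length 507 of 11219 genes had an exact permutation p of at most 0.05 for genotype. In the deposited lists the Lhx2 difference was −19.1 points (exact p = 0.00667) without control telencephalon culture 59. That was the only 1 of 13 such omissions with an exact p of at most 0.05, and the highest was 0.297. Of the peaks shared by all libraries, the 5 near these genes had limma p of 0.0982 to 0.285 for genotype, where 4.54% of shared peaks had an unadjusted p of at most 0.05 and 0 passed adjustment. The Emx2 promoter peak was called in 5 of 7 K27M and 4 of 6 control libraries, and the Lhx9 promoter in 4 of 7 and 5 of 6. The difference between the regional effects of the 2 genotypes had limma p of 0.177 to 0.805 at the 5 shared peaks.

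The number of peaks within 100 kb differed by region with an exact p of at most 0.05 at 0 of the 4 genes. It averaged 4.86 ± 2.12 in telencephalon and 5.33 ± 1.03 in brainstem at Emx1 (exact permutation p = 0.604), and 5.29 ± 1.98 and 4.50 ± 1.97 at Emx2 (exact p = 0.581). At Lhx2 it was 5.57 ± 2.94 and 5.00 ± 1.41 (exact p = 0.74), and at Lhx9 4.43 ± 2.37 and 4.33 ± 1.97 (exact p = 1), in each case SD over 7 and 6 libraries. Of 21938 protein-coding genes 0.483% had a p of at most 0.05. By genotype the exact p ranged from 0.251 to 0.817 at the 4 genes.

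In lists of equal length the base pairs in peaks around Emx2 and Lhx2 were higher in telencephalon. Around Emx2 they were 1171, 1764 and 3042 in control telencephalon cultures 51, 59 and 61, and 3273, 4664, 2503 and 3717 in K27M telencephalon cultures 41, 51, 59 and 61. Brainstem libraries had 900, 824 and 1105 in control cultures 51, 59 and 61, and 1862, 864 and 1488 in K27M cultures 41, 59 and 61. Thus 5 of 7 telencephalon libraries were above every brainstem library. The difference was 1592 bp (exact permutation p = 0.00429, adjusted p = 1). Around Lhx2 the means were 2493 ± 649 (SD, n = 7) and 1526 ± 598 bp (SD, n = 6), a difference of 963 bp (exact p = 0.0243, adjusted p = 1), with 6 of 7 telencephalon libraries above every brainstem library. At this level 2.85% of 21938 genes differed by region, and 0 passed adjustment. Emx1 and Lhx9 had differences of −300 and 722 bp (exact p = 0.406 and 0.149). This measure was chosen after the data had been seen. It includes the promoter peaks described above and is not independent of them. Emx2 also differed by genotype on it, by 1004 bp (exact p = 0.0271, adjusted p = 1), where 531 of 21938 genes had an exact p of at most 0.05. Of these 380 were higher and 151 lower in K27M. The Emx2 difference by genotype was 462 bp within brainstem (exact p = 0.3) and 1547 bp within telencephalon (exact p = 0.114). In the deposited lists the difference by region was 1453 bp at Emx2 (exact p = 0.227) and 468 bp at Lhx2 (exact p = 0.703).

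**Figure D3:**
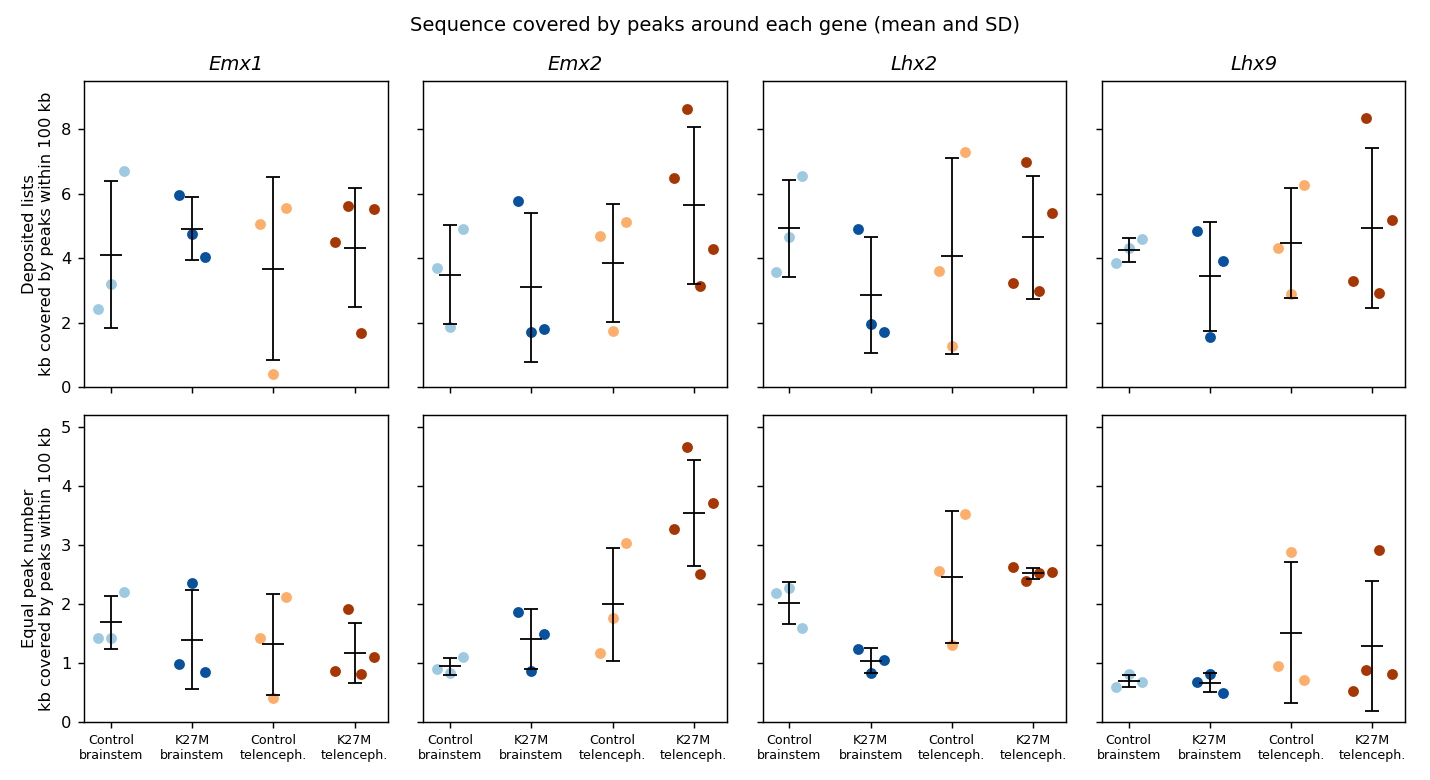
Sequence covered by peaks within 100 kb of each gene, in kb (y axis), per library and group, in the deposited lists (top) and in lists of 16879 peaks each (bottom); bars are mean and SD over 3 or 4 libraries. In the bottom row 5 of 7 telencephalon libraries at Emx2 and 6 of 7 at Lhx2 lie above every brainstem library.

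Promoters of the 4 genes were weak by the standard of coding promoters. Among the coding promoters called in the same library, the median rank of the strongest promoter peak was at the 14.5th percentile for Emx1, the 15.0th for Emx2, the 35.4th for Lhx2 and the 12.6th for Lhx9. Within each library, the percentile of the strongest promoter peak was set against the median percentile of the distal peaks within 100 kb. A strongest peak set against a median favours the promoter where a gene has several promoter peaks. Lhx2 has 2 such merged peaks, and the same holds for the coding genes compared below. Lhx2 followed the usual order, with its promoter higher by 29.8 ± 19.7 points (SD, n = 11 libraries; two-sided exact sign-flip permutation p = 0.00391) and higher in 10 of 11. Emx2 went the other way, with its promoter lower by −23.0 ± 24.1 points (SD, n = 9; exact permutation p = 0.0273) and higher in 2 of 9. Emx1 differed by 3.00 ± 21.1 points (SD, n = 11; exact permutation p = 0.645) and Lhx9 by −9.08 ± 15.4 points (SD, n = 9; exact permutation p = 0.148).

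Over 12159 protein-coding genes with both kinds of peak in at least 6 libraries, the median difference was 26.1 points, and the promoter was the stronger in 9702. Of these genes 62.8% had a higher promoter with a p of at most 0.05, so the Lhx2 result is that of most genes, and 8.31% had a lower promoter at that level, as Emx2 did. In lists of equal length the Emx2 difference was −50.1 points (exact permutation p = 0.03125). The Emx2 call was lost (exact permutation p = 0.0547) without any 1 of control brainstem culture 51, control telencephalon culture 51 or 61, or K27M telencephalon culture 59 or 61. When peaks at promoters of other genes were counted as distal, the Lhx2 difference was 4.51 points (exact permutation p = 0.634) and that of Lhx9 −25.7 points (exact permutation p = 0.00391). The open promoters of Dennd1a and 2310009B15Rik were then among the peaks compared.

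**Figure D4:**
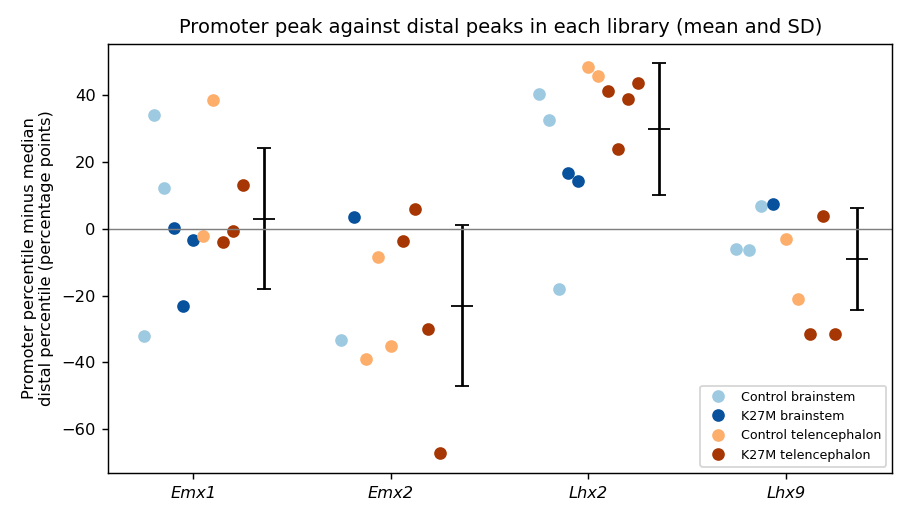
Within-list percentile of the strongest promoter peak minus the median percentile of distal peaks within 100 kb, in percentage points (y axis), for each library with both kinds of peak; bars are mean and SD. Lhx2 lies above 0 in 10 of 11 libraries and Emx2 in 2 of 9.

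Related genes were read from 3 lists. Of 19 LIM-homeodomain genes and cofactors, 18 were tested and 0 differed by region, where 2.77% of all genes tested did in either direction, with a median difference of −2.51 points beside −1.39 over all genes tested. By genotype, where the share of all genes was 3.81%, 2 of the 18 had an unadjusted exact permutation p of at most 0.05, in opposite directions, namely Lhx6, a factor of cortical interneurons, with −10.6 points (exact p = 0.00571), and Ssbp3, a cofactor of the LIM complex, with 19.6 points (exact p = 0.0371), both named after their values were seen. Of 18 dorsal telencephalon and cortical neuron genes, 15 were tested, and 1 was higher in telencephalon and 0 in brainstem, with a median of 0.70 points. Of all genes tested, 0.924% were higher in telencephalon. The listed gene higher in telencephalon was Dmrta2, a regulator of early cortical progenitors. Its promoter peak was called in 6 of 7 telencephalon and 2 of 6 brainstem libraries, with percentiles of 32.6 ± 29.0 (SD, n = 7) and 1.41 ± 2.58 (SD, n = 6) and a difference of 30.0 points (exact permutation p = 0.0343, adjusted p = 1). Brainstem calls alone were below the filter of 3 libraries, so Dmrta2 entered through telencephalon and this p-value is given as a description. Of 39 Hox genes, which pattern the hindbrain and spinal cord, 21 were tested, and 9 were higher in brainstem and 0 in telencephalon, where 1.84% of all genes tested were higher in brainstem. Of the 9, 6 were called in 0 telencephalon libraries, so that they entered the test through brainstem alone, and the count is given as a description. The largest difference was at Hoxa5 (−28.3 points, exact permutation p = 0.0286), which was called in 6 brainstem and 3 telencephalon libraries. Hoxc4 had −23.1 points (exact p = 0.0257), called in 4 and 2. Its telencephalon calls alone were below the filter of 3 libraries, so this p-value is also a description. Hoxb3, Hoxb4, Hoxb7, Hoxb2 and Hoxa4, each without a telencephalon call, had −19.5, −16.1, −10.6, −7.78 and −7.58 points, which are a description for the same reason. No gene of the 3 lists passed adjustment.

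The 4 genes did not share one pattern across libraries. The correlation of their promoter percentiles over the 13 libraries, which share depth and culture and give no test here, ran from r = −0.36 between Emx1 and Emx2 to 0.32 between Emx1 and Lhx9. Lhx2 and Emx2 had r = 0.21. With the number of peaks in the list r was 0.75 for Lhx9, 0.52 for Emx1, 0.30 for Emx2 and 0.08 for Lhx2. By the same measure the coding genes most like Emx2 were Crip1 (r = 0.90), Oser1 (0.89) and Gnb4 (0.87), and those most like Lhx2 were Chrna7 (0.78), Arhgap31 (0.77) and Fabp7 (0.77). Those most like Emx1 were Slc35f3 (0.90), Sphkap (0.88) and Etv2 (0.88), and those most like Lhx9 were Map3k21 (0.93), Tapbpl (0.93) and Myo15b (0.93). They are the highest of 14068 genes and are given as a description.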

How the data were processed

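ATAC-seq was done by the study with the Omni-ATAC protocol on 13 OPC cultures. The authors trimmed reads with Trim Galore 0.6.7 and cutadapt 3.4, used BWA 0.7.17-r1188 for alignment (mm10), filtered out a blacklist, and ran MACS2 2.2.7.1 in broad mode on each library. The deposited lists give the fold enrichment, the −log10 p and −log10 q and a score per peak. The score was not analysed, a cutoff for broad peaks is stated in the study's materials for its ChIP-seq but not for these ATAC-seq lists, and nothing was normalised between libraries. The lowest deposited −log10 q was 1.00. Lists hold no counts, so depth is unknown, and the study's count-based test with matched cultures could not be run.

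A promoter window held the 2 kb before and the 1 kb after each GENCODE M21 start, an overlap of 1 bp counted, and distal peaks overlapped no promoter window. Genes were tested when protein-coding with a promoter peak in at least 3 libraries. Exact permutations exchanged one factor within the other (700 arrangements), Fisher's exact test covered features found in 5 to 8 libraries, and limma 3.58.1 (R 4.3.3) was fitted to log2 fold of shared peaks with 4 group means and culture as block. Benjamini-Hochberg adjustment ran over all features. With 700 arrangements, permutation p-values could pass it only if many genes reached the smallest possible p. Tests were checked on simulated data. Named peaks were promoter peaks in at least 3 libraries, up to 4 distal peaks per gene with the largest regional difference in calls and up to 2 found in all libraries. Listed genes were named if past an unadjusted p of 0.05 by region, at most 8 a list by size, and 3 most similar genes per member more than 500 kb away. Members and lists were chosen with earlier results of these data known. The study's methods describe matched pairs of control and K27M cultures. They do not say that equal culture numbers mark the match, across genotypes or regions, which was assumed here. Over 16 same-number pairs, deviations from group means correlated at −0.19 to 0.26, with a median of 0.04. P-values measure the spread between cultures of pooled litters. The mm10 sequence came from GRCm38.p6, and 19 of 19 annotated transcripts of the 4 genes were identical in it. Of the peaks and listed genes that these rules name, 2 are not reported here.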

Additional observations from a re-analysis of the deposited data

Results flagged for a closer look

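Among 36 sets of values tested for an outlying library (4 genes, 3 measures, 3 sets of libraries), 3 had one. The cutoff flags about 1 set in 20 where values are normal. Here sets shared libraries and percentiles held values of 0, so that rate need not apply. The Emx2 promoter of K27M brainstem culture 41 had a percentile of 41.4, while the other 5 brainstem libraries had 0 to 14.2. K27M telencephalon culture 51 had 9 peaks within 100 kb of Lhx9, while the other telencephalon libraries had 2 to 5, and its list of 52164 peaks was the longest of that region. K27M brainstem culture 59 had 1578 bp in peaks within 100 kb of Lhx9, while the other brainstem libraries had 3848 to 4854 bp.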

How the results depend on the processing

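In lists of equal length, the genotype difference in promoter percentile was −1.22 points at Emx2 and −19.8 at Lhx2. The region difference in peaks within 100 kb was 1.04 at Emx2 (exact permutation p = 0.0229), and the genotype difference was −0.38 at Emx1 and −0.0417 at Lhx9. Genes called were then 769 by region and 535 by genotype for peaks within 100 kb, and 46 and 35 for promoter detection. In base pairs, a measure chosen after seeing the data, these lists gave 1592 at Emx2 and 963 at Lhx2 by region, 1004, −220 and −128 at Emx2, Emx1 and Lhx9 by genotype, and 625 and 531 genes; the deposited lists gave −180 at Lhx9 by genotype. With peaks of p at most 1e-10, Lhx2 had 6.32 points by region, peaks within 100 kb differed by 0.0417 at Emx1 and −0.33 at Emx2, and called genes numbered 88 and 137 (promoter percentile), 12 and 34 (peaks within 100 kb), 4 and 5 (promoter detection) and 7 and 7 (merged peaks) by region and genotype. Emx1, Emx2 and Lhx9 promoters gave no value there, nor did Emx1 and Lhx9 promoters at equal length, or the promoter against distal peaks at equal length for Emx1, Lhx2 and Lhx9. Within 50 kb 161 genes were called by region. With the replicate block, Emx2 had 15.6 and Lhx2 20.1 points by region, Lhx9 −0.17 peaks by genotype, and the counts were 0 for both genotype measures, 1 and 0 for promoter detection and 13 and 0 for merged peaks; by genotype the smallest p it allows is 0.0625, so 0 calls say nothing there. With other genes' promoters as distal, Emx1, Lhx2 and Lhx9 had −1.50, 4.51 and −25.7 points. In shared peaks 0 passed adjustment by region without centring (limma, 254 unadjusted; 47 by genotype) and 0 as percentiles (446; 374). The Lhx9 −8.3 kb and Lhx2 −52.1 kb peaks had log2 differences of −0.0412 and −0.0543 by region without centring, and the former 0.48 points by genotype as a percentile. The causes were not tested.

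Leaving out 1 library in turn gave 13.3 to 23.7 points at Emx2, 16.02 to 26.8 at Lhx2 and −9.24 to 4.89 at Lhx9 by region, and −19.1 to −9.13 at Lhx2 by genotype. Peaks within 100 kb ranged from −1.08 to 0.17 at Emx1 and −0.63 to 1.38 at Lhx2 by region, and from −1.29 to 0.71 at Lhx2 and −0.42 to 0.83 at Lhx9 by genotype. Promoter against distal ranged from −0.57 to 6.50 at Emx1 and −26.7 to −17.5 at Emx2. Called genes ranged from 367 to 921 (promoter percentile by genotype), 55 to 316 and 40 to 470 (peaks within 100 kb by region and genotype), 4 to 22 and 4 to 26 (promoter detection), merged peaks from 86 to 325 and 37 to 329, and adjusted limma calls from 0 to 7 and 0 to 2. The log2 region difference ranged from −0.0441 to 0.0980 at the Lhx9 −8.3 kb peak, −0.0365 to 0.101 at the Lhx2 −52.1 kb peak and −0.109 to 0.00897 at the Emx1 −49.7 kb peak. Depth is unknown, so a gene without a peak had none called at the depth of that library.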
